A study of Mus musculus with 3 samples.

Results

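The V1R receptors of the vomeronasal organ (VNO) were described gene by gene. Every feature whose symbol starts with Vmn1r was taken, which gave 209 receptors of 32285 features. A V1R cell was a barcode with 200 to 9000 genes, at most 10% mitochondrial unique molecular identifiers (UMIs) and at least 5 Vmn1r UMIs. The 3 libraries held 658 V1R cells in all, and each was assigned to its top receptor, the one with the most UMIs.

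The V1Rs are G protein-coupled receptors of the apical vomeronasal sensory neurons (VSNs), which lie near the lumen of the VNO and signal through the G protein subunit encoded by Gnai2. The basal VSNs use the unrelated V2R receptors, the Vmn2r genes, and Gnao1. A V1R neuron is generally held to express a single receptor gene from a single allele. Neurons that share a receptor project to the same set of glomeruli in the accessory olfactory bulb.

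All libraries were made from the VNO of male mice on a mixed C57 BL/6J and 129P2/OlaHsd background, dissociated with papain, frozen and profiled on the 10x Genomics platform. The control (P10 control in the plots) was OMPCre heterozygous and taken at postnatal day 10 (P10). The P10 mutant and the 3-month mutant were OMPCreR26AP2e double heterozygous animals of postnatal day 10 and 3 months. OMPCre puts Cre recombinase under the gene for olfactory marker protein (Omp), so that in the mutants the Rosa26 transgene for AP-2ε, the product of Tfap2e, is switched on once a neuron starts to make Omp. With 1 library for each group, differences between groups carry no replicate check: genotype cannot be told apart from library, nor can age. The labels do not give the number of animals behind a library.

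The control held 8202 barcodes and 83870584 UMIs, the P10 mutant 8864 and 80760046, and the 3-month mutant 10293 and 70074800. Pairs of libraries shared 21 to 30 barcode sequences, and no V1R cell had a barcode in common with a V1R cell of another library. The filters on genes and mitochondrial UMIs left 4795, 3956 and 6960 barcodes. Of these, 371 were V1R cells in the control (7.74%, 95% interval 6.996 to 8.53), 151 in the P10 mutant (3.82%, 3.24 to 4.46) and 136 in the 3-month mutant (1.95%, 1.64 to 2.31). All intervals for shares are exact Clopper-Pearson intervals and cover counting error only. V1R cells held 97.1%, 97.2% and 95.2% of the Vmn1r UMIs of the filtered barcodes.

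The V1R cells carried the apical markers. Gnai2 was seen in 93.0%, 96.7% and 83.8% of them, in the order control, P10 mutant and 3-month mutant, at 1761, 1078 and 1145 CPM (UMIs of the gene per 1000000 UMIs) pooled over the cells. It was at 434, 452 and 380.0 CPM in the other filtered barcodes. Meis2, a transcription factor of apical VSNs that the study also places in sustentacular cells, was seen in 81.1%, 93.4% and 66.2%. Among barcodes with at least 3 UMIs of Ptprc, a gene of immune cells that should lack V1Rs, 2.60%, 0.780% and 0.574% had 5 or more Vmn1r UMIs, and 24.5%, 12.7% and 8.53% had at least 1. Their median depth was 10732.5, 10573 and 6456 UMIs, against 15978, 26371 and 13462.5 in the V1R cells. The stromal gene Col1a1 was seen in 74.4% and 66.2% of V1R cells at P10 and in 10.3% at 3 months, and Cyp2a5, a gene of sustentacular cells, in 21.3%, 38.4% and 46.3%. All 3 sustentacular genes listed were higher in V1R cells than in the other filtered barcodes of each library. At 3 months Cyp2a5 was at 715 against 226 CPM, Fezf2 at 217 against 56.5 CPM and Sox2 at 448 against 151 CPM. The basal gene Gnao1 was seen in 67.5% of P10 mutant V1R cells, at 78.3 against 23.3 CPM. The part of RNA from other cells in the results below was not tested except where a value is given.

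The genes of 208 receptors were placed by identifier in the GENCODE M21 annotation of GRCm38. They formed 14 genomic clusters on 8 chromosomes when neighbours within 1000000 bases were joined. The family was made of close copies: the median receptor matched its closest relative at 93.0% of coding bases, and 87 had a relative at 95% or more. Over all pairs of receptors the median identity was 53.3%. A read of 90 bases from 65 receptors would match no other member, while in 44 receptors at least 50% of such windows also occurred in another member. Counts of those 44 can be split or lost between copies. Exons of 12 receptors overlapped another gene on the same strand, among them Vmn1r42 and Vmn1r43, which overlap each other.

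Sequences of 2 pairs of relatives are shown because their members were found together in cells. Each line gives 90 coding bases from the 3′ part of the coding sequence, 5′ to 3′ on the coding strand, with the bases that differ from the partner in capitals (GENCODE M21, GRCm38). Vmn1r27 (chr6:58215133-58215222, minus strand) and Vmn1r39 (chr6:66804448-66804537, minus strand) differed at 17 of 90 bases, with 79.3% identity over the coding sequence.
Vmn1r27: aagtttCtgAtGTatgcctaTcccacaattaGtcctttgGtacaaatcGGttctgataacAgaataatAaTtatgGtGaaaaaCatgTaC
Vmn1r39: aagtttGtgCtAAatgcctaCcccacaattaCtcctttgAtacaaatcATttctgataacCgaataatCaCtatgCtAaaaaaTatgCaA
Vmn1r35 (chr6:66678797-66678886, minus strand) and Vmn1r37 (chr6:66732190-66732279, plus strand) differed at 8 of 90 bases, with 94.0% identity.
Vmn1r35: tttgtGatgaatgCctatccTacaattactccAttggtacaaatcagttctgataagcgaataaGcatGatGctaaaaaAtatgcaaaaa
Vmn1r37: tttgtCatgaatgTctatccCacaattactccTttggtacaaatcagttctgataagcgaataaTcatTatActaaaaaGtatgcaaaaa

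The V1R cells used a wide range of receptors. Of the 209 receptors, 131 were the top receptor of at least 1 cell, 32 of them in all 3 libraries and 48 in exactly 1 library. The control used 112 receptors in 371 cells, the P10 mutant 78 in 151 and the 3-month mutant 56 in 136. The inverse Simpson number, the count of equally used receptors that would give the same evenness, was 48.6, 51.9 and 22.1. The 3-month value includes the 20 shallow barcodes topped by Vmn1r43 that are described below, and was not computed without them. The number of receptors used depends on the number of cells, so the 3 counts are given side by side only.

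A further 78 receptors topped no cell, and 47 had no UMI in any barcode of any library. Reads of a 3′ library lie near the 3′ end of a transcript, and receptors with and without an annotated 3′ end were seen to different degrees. Of 55 receptors with at most 10 bases of annotated 3′ UTR, 4 topped a cell (7.27%) and 38 had no UMI. Of 153 receptors with a longer annotated 3′ UTR, 127 topped a cell (83.0%) and 8 had no UMI. Most of the short ones lay in 1 place: a cluster of 65 receptors at chr7:20099680-24063554 held 49 of them. In that cluster 14 receptors topped a cell, 11 of the 16 with an annotated 3′ UTR and 3 of the 49 without. Those 14 made up 4.31%, 5.30% and 5.15% of V1R cells. The annotation release used by the authors for counting is not given in the sources used here, and a count of 0 does not show that a receptor was silent. Many receptors with a short annotated 3′ UTR in that cluster also shared their sequence with other members. In Vmn1r95, Vmn1r100 and Vmn1r130, for example, 100% of the windows of 90 bases occurred in another member, but in Vmn1r113 12.2%. The parts of the annotation and of shared sequence in these counts were not told apart or tested.

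The cluster that supplied the most P10 cells lay on chromosome 13. Its 35 receptors topped 22.1% of the control cells (17.98 to 26.7), 21.2% of the P10 mutant (14.97 to 28.6) and 19.1% of the 3-month mutant (12.9 to 26.7). The cluster of 24 receptors at chr7:10272991-13220657 supplied 14.02%, 17.9% and 18.4%, and the cluster of 28 at chr6:56924015-58475330, which holds Vmn1r27, 13.2%, 15.2% and 9.56%. The cluster of 8 receptors at chr6:66552180-66810609, which holds Vmn1r35, Vmn1r37 and Vmn1r39, had all 8 members on top of some cell and supplied 15.6%, 11.9% and 11.03%. The cluster of 15 at chr6:89707540-90271213, which holds Vmn1r43, supplied 5.93%, 6.62% and 20.6% (14.1 to 28.4 at 3 months). The cluster of 2 receptors at chr7:26260334-26618464, Vmn1r184 and Vmn1r185, supplied 4.04%, 5.30% and 5.15% of cells but 8.94%, 17.4% and 12.2% of all Vmn1r UMIs in V1R cells.

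Few receptors topped more than a small part of the cells. The 10 receptors with the highest share averaged over the libraries were Vmn1r43, Vmn1r35, Vmn1r89, Vmn1r86, Vmn1r218, Vmn1r184, Vmn1r39, Vmn1r201, Vmn1r37 and Vmn1r229. Together they topped 29.4%, 23.8% and 44.1% of V1R cells. The 3-month share includes 20 shallow barcodes of 136 topped by Vmn1r43, described below. By pooled Vmn1r UMIs, of which Vmn1r43 was 0.862% at 3 months, the 10 held 30.5%, 22.5% and 51.4%. A named receptor was not given a ligand or a function from these data.

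**Figure D1:**
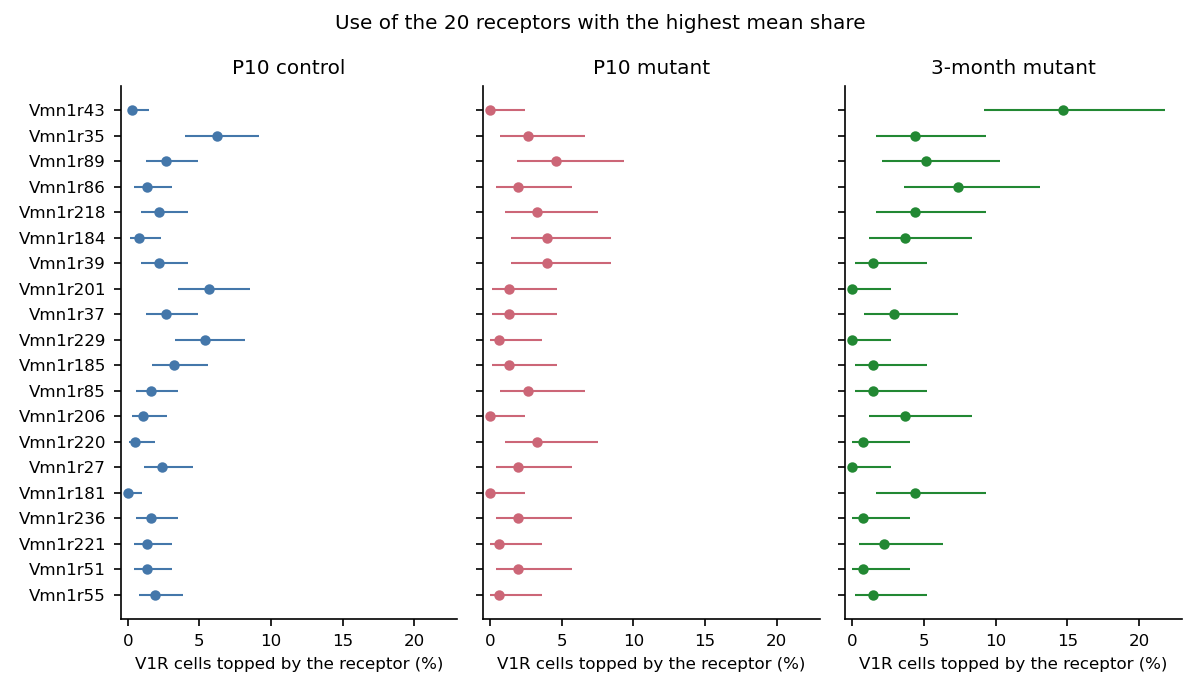
Share of V1R cells topped by each of the 20 receptors with the highest mean share, in percent (horizontal axis), for the control, P10 mutant and 3-month mutant libraries. Points are shares and lines are exact 95% intervals for counting error. Vmn1r43 stands at 14.7% in the 3-month mutant and at 0.270% and 0% in the P10 libraries.

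Vmn1r35 topped the most control cells, 23 (6.20%, 3.97 to 9.16). It topped 4 cells of the P10 mutant (2.65%, 0.726 to 6.64) and 6 of the 3-month mutant (4.41%). Its intervals overlap in all 3 libraries. By UMIs the libraries stood further apart, with 4370 Vmn1r35 UMIs in control V1R cells, 22 in the P10 mutant and 1318 at 3 months. The 4 P10 mutant cells had a median of 4 Vmn1r35 UMIs.

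Vmn1r201 and Vmn1r229 followed in the control and were rare elsewhere. Vmn1r201 topped 21 control cells (5.66%, 3.54 to 8.52), 2 of the P10 mutant (1.32%) and 0 of 136 at 3 months (upper bound 2.68%). Its UMIs per cell were few and even, with a median of 19 and a most of 28 in the control cells, and these cells had a median of 5868 UMIs in all. Vmn1r229 topped 20 control cells (5.39%, 3.32 to 8.20), 1 P10 mutant cell (0.662%) and none at 3 months. Its cells were shallow, with a median of 1449.5 total UMIs and 5.5 Vmn1r229 UMIs, and 14 of the 20 had under 2000 UMIs. In them Omp was at 29.6 CPM, against 211 in the other V1R cells and 13.7 in the other filtered barcodes. Gnai2 was at 696, 1771 and 434 CPM in the same order. Obp2a, a gene of gland cells, was at 3124, 1576 and 4891 CPM. Among cells with at least 2000 UMIs Vmn1r229 topped 6 (1.90%), and Vmn1r201 topped 18 (5.71%). At the 5% mitochondrial limit of the study they topped 0 and 2 of 147 cells. Neither receptor had a UMI in Ptprc barcodes with under 5 Vmn1r UMIs, where Vmn1r35 led with 16 of 108 Vmn1r UMIs in the control. Over all control barcodes Vmn1r229 had 687 UMIs and Vmn1r201 440, against 5480 of Vmn1r35. With so few UMIs the count of 0 does not separate them from Vmn1r35. Of the 687 and 440 UMIs, 256 and 391 lay in V1R cells. The part of free RNA in them was not tested.

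Vmn1r43 led the 3-month mutant with 20 of 136 cells (14.7%, 9.22 to 21.8), against 1 of 371 control cells and 0 of 151 P10 mutant cells. Each of the 20 held 5 to 15 Vmn1r43 UMIs. They were shallow barcodes of 531 to 3242 total UMIs with a median of 873, and 19 of them had under 2000. Among cells with at least 2000 UMIs only 1 of 102 was topped by Vmn1r43 (0.980%). Gm42418, a locus that overlaps ribosomal RNA, was at 168012 CPM in them, against 24252 in the other V1R cells of that library and 41849 in the other filtered barcodes. Obp2a, a gene of gland cells, was at 14596 CPM in them, 1113 in the other V1R cells and 13674 in the remaining barcodes. Genes of VSNs were measured in the same barcodes. Cartpt, a neuropeptide gene, was at 1708 CPM in them, 943 in other V1R cells and 33.0 in the remaining barcodes. S100z was at 1605, 605 and 31.9 CPM, and Gng8, a G protein gamma subunit of VSNs, at 1656, 611 and 41.9. Gnai2 was at 725, 1148 and 380.0 CPM and Omp at 103.5, 182 and 8.93. Whether these 20 barcodes are whole cells was not settled by these values, so the 14.7% is a share of barcodes that passed the filters. In the P10 mutant 1188 of 1223 Vmn1r43 UMIs lay in 1 barcode of 103600 UMIs, which the limit of 9000 genes removed.

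Vmn1r89 topped the most P10 mutant cells, 7 (4.64%), with 10 in the control (2.70%) and 7 at 3 months (5.15%). Vmn1r86 topped 10 cells at 3 months (7.35%, 3.58 to 13.1), 3 in the P10 mutant and 5 in the control (1.35%). Vmn1r184 topped 3, 6 and 5 cells, but carried the most UMIs of any receptor in both mutants, 14.6% of the Vmn1r UMIs in the P10 mutant and 12.03% at 3 months, against 4.27% in the control. The other 3 of the 10 were spread over the libraries. Vmn1r218 topped 8, 5 and 6 cells and held 1206, 93 and 1777 UMIs. Vmn1r39 topped 8, 6 and 2 cells and held 920.0, 286 and 1028 UMIs. Vmn1r37 topped 10, 2 and 4 cells and held 3411, 147 and 1380.0 UMIs. For Vmn1r184 in the P10 mutant the 6 cells had a median of 690 Vmn1r184 UMIs and up to 1450. In the other libraries its UMIs lay mostly in 2 cells. These held 1318 and 1099 of 2581 UMIs in the control, and 1380 and 1116 of 2514 at 3 months. The Vmn1r184 shares of UMIs thus rest on few cells in each library.

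**Figure D2:**
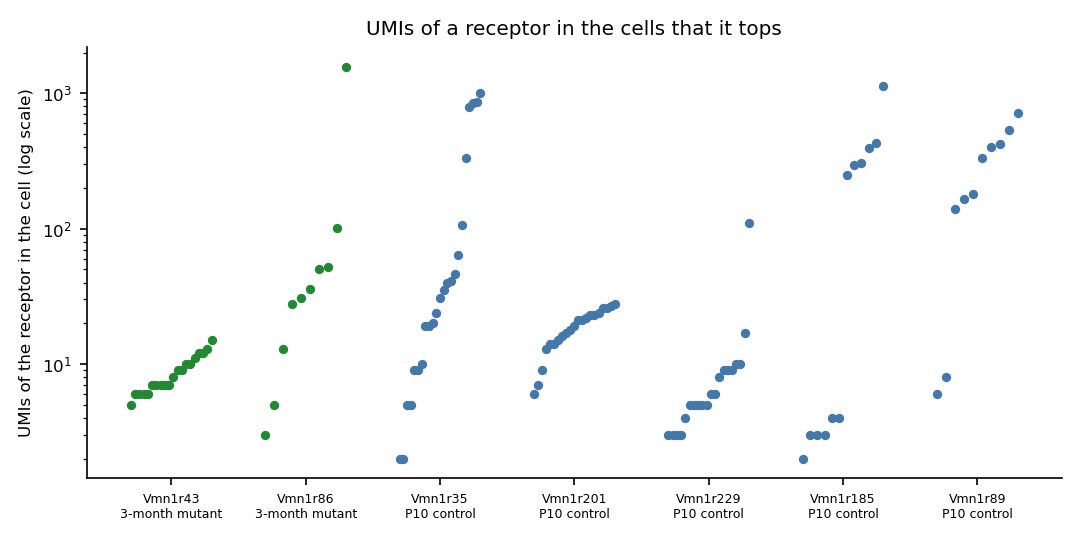
UMIs of a receptor in each V1R cell that it tops (vertical axis, log scale), for 7 receptors in the library named under each. Points are cells in rising order. Vmn1r43 cells hold 5 to 15 UMIs and Vmn1r201 cells at most 28, while Vmn1r35 cells reach 998.

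The level reached by a receptor in the more mature cells differed between receptors by median, and also widely between cells of the same receptor. Of control cells with Omp UMIs at or above those of Gap43, a gene of immature neurons, 20 receptors topped at least 3. The median level of the receptor in its own cells was highest for Vmn1r37, at 25511 CPM over 4 cells, and lowest for Vmn1r56, at 944 CPM over 4 cells (222 to 1639). Vmn1r171 stood at 19054 CPM (17606 to 22334 over 4 cells), Vmn1r20 at 12078 (8273 to 15635.5 over 5) and Vmn1r201 at 3049.6 (2657 to 4601 over 5). The ranges of Vmn1r171, Vmn1r20 and Vmn1r201 did not overlap, whereas Vmn1r37 spanned 625 to 35952 CPM and overlapped all of them. Other receptors were as wide, such as Vmn1r35 (65.7 to 36506 CPM over 7 cells) and Vmn1r55 (107 to 27298 over 3). With so few cells each, a level particular to a receptor is not established. Vmn1r171, Vmn1r20 and Vmn1r56 were named after their values were seen. These are 3′ end counts, not divided by length.

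Most V1R cells were dominated by 1 receptor. The top receptor held a median of 98.6%, 98.6% and 100% of the Vmn1r UMIs of a cell. It reached 90% in 237 of 371 control cells (63.9%, 58.8 to 68.8), in 95 of 151 P10 mutant cells (62.9%, 54.7 to 70.6) and in 108 of 136 cells at 3 months (79.4%, 71.6 to 85.9). The top receptor was under 50% in 46, 16 and 2 cells.

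In the P10 libraries the share was higher in cells with more Vmn1r UMIs. In the control 31.5% of cells with 5 to 9 Vmn1r UMIs were at or above 90% (22.03 to 42.2), 56.1% with 10 to 49, 80.6% with 50 to under 200 and 90.6% with 200 or more (82.9 to 95.6). The P10 mutant went from 31.0% through 52.6% and 85.2% to 88.6%. At 3 months the same steps gave 78.0%, 76.3%, 76.2% and 88.9%. A second measure was the probability that 2 Vmn1r UMIs of a cell are of the same receptor. Over these steps it went from 53.2% to 94.6% in the control and from 53.0% to 93.9% in the P10 mutant. At 3 months it went from 90.0% to 95.2%. The same few UMIs of other receptors lower it more in a cell with few UMIs of its top receptor. The median number of UMIs of all other receptors together was 2 in the control cells with the fewest Vmn1r UMIs and 1 in those with the most. Omp was seen in 19.1% of control cells of the lowest step and in 94.8% of the highest.

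**Figure D3:**
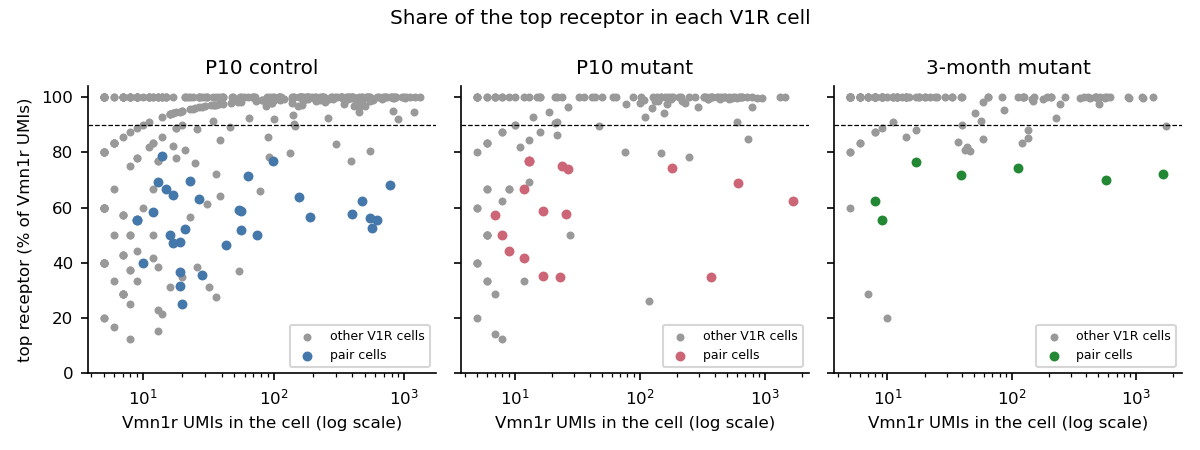
Top receptor's share of the Vmn1r UMIs of each V1R cell, in percent (vertical axis), against the cell's Vmn1r UMIs (horizontal axis, log scale), by library. The dashed line marks 90%, and coloured points are the 33, 17 and 7 pair cells of the control, P10 mutant and 3-month mutant. Low shares gather at few Vmn1r UMIs in the P10 libraries.

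Over all V1R cells, the top receptor was among the first 10 nuclear-encoded genes by UMIs in 52.3%, 42.4% and 56.6%, with a median rank of 8, 26 and 7. Cells with many Vmn1r UMIs were chosen by the receptor's own count, so their ranks are a description. With at least 200 Vmn1r UMIs, the top receptor was among the first 10 nuclear-encoded genes by UMIs in 95 of 96 control cells, 41 of 44 P10 mutant cells and 26 of 27 cells at 3 months. It was the first in 19, 11 and 8 of them. Its median share of all UMIs of these cells was 1.54%, 1.65% and 1.88%, and its highest 5.04%, 12.1% and 7.03%.

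Cells with more Gap43 than Omp UMIs, the less mature ones, made up 42.9% of V1R cells in the control, 55.0% in the P10 mutant and 12.5% at 3 months. In 16.7%, 13.2% and 41.2% neither gene was seen, and these cells belong to neither stage. The less mature cells had a median of 27, 23 and 9 Vmn1r UMIs, against 161.5, 174.5 and 136 in cells with Omp at or above Gap43. Where neither gene was seen the median was 7, 8 and 8. The top receptor reached 90% in 58.5% of the less mature control cells (50.4 to 66.2) and in 78.0% of the more mature ones (70.5 to 84.3). Among cells with at least 50 Vmn1r UMIs the share was not higher in the more mature ones. There it was 59 of 66 less mature cells (89.4%) against 86 of 102 more mature ones (84.3%). No interval was computed for these shares, and no order is drawn from them. In the P10 mutant these counts were 33 of 37 (89.2%) and 26 of 31 (83.9%). At 3 months only 3 cells with so many Vmn1r UMIs were less mature, and 35 of 42 more mature ones reached 90% (83.3%).

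A pair cell was one whose second receptor had at least 3 UMIs and at least 20% of the Vmn1r UMIs. There were 33 in the control (8.89%, 6.20 to 12.3), 17 in the P10 mutant (11.3%, 6.70 to 17.4) and 7 at 3 months (5.15%, 2.09 to 10.3). They held 45 different pairs, of which 7 were seen in at least 2 cells, and 12 pairs lay within 1 genomic cluster. In 13 pair cells the second receptor had at least 50 UMIs. Pair cells had a median of 17835, 30647 and 21586 total UMIs, against 15764, 24502 and 11738 in the other V1R cells. Some pair cells held few receptor UMIs and many of sustentacular genes. A P10 mutant cell with 18 Vmn1r185 and 5 Vmn1r39 UMIs held 51 of Sox2, 35 of Cyp2a5 and 2 of Omp. A 3-month cell with 5 Vmn1r32 and 3 Vmn1r55 UMIs held 79, 171 and 0. Others, such as a P10 mutant cell with 422 Vmn1r51 and 189 Vmn1r20 UMIs, held 0 of Sox2 and Cyp2a5. Barcodes that hold more than 1 cell were not removed. Their part and that of RNA from other cells in the pairs was not tested.

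The pair of Vmn1r27 and Vmn1r39 was seen in 4 cells, all of the control. Their UMIs were 45 and 18, 29 and 25, 33 and 22, and 36 and 37, with at most 2 UMIs of any other receptors. The 4 cells had 12046 to 18383 total UMIs, which placed them at the 39.6 to 55.8 percentile of V1R cells, and all 4 had Omp and Gnai2 UMIs, with 1 or 2 UMIs each of the sustentacular genes Sox2 and Cyp2a5. The receptors lie 8584476 bases apart on chromosome 6, in different clusters, and share no window of 90 bases. Their barcodes differed from each other at 10 or more of 16 bases. All 4 cells remained at the 5% mitochondrial limit.

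Vmn1r27 was also paired with Vmn1r84, a receptor on chromosome 7 with 54.3% identity to it. Of the 4 cells, again all in the control, 1 had 343 Vmn1r84 and 265 Vmn1r27 UMIs in 57338 total UMIs. The other 3 had 5 to 16 UMIs of each receptor in 1307 to 2043 total UMIs. None of the 4 remained at the 5% mitochondrial limit. Over the libraries 15 cells carried Vmn1r27 at the level of a pair, 13 of them in the control. Of those 13, 9 were pair cells and 3 were dominated by Vmn1r27 alone. In the P10 mutant both cells at that level were dominated by Vmn1r27.

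Vmn1r185 and Vmn1r236, on chromosomes 7 and 17, were found together in 2 control cells with 295 and 170 and with 305 and 219 UMIs. These 2 cells had 56337 and 64187 total UMIs. They also held 8 and 17 Vmn1r184 UMIs, and neither remained when the 10% of V1R cells with the most total UMIs were left out. Vmn1r90 and Vmn1r45, on chromosomes 7 and 6, were found in 2 control cells with 32 and 22 and with 100 and 57 UMIs. Both had no Omp UMI, 11 and 34 Gap43 UMIs, and no UMI of another V1R. They had 4976 and 11829 total UMIs, below the median of the library. Vmn1r35 was found with its neighbour Vmn1r36 in 2 control cells (9 and 9, 20 and 16 UMIs). The first held 78 Gnai2 and 15 Meis2 UMIs, while the second held 0 of each. Their Omp UMIs were 6 and 7 and their Gap43 UMIs 14 and 23. With Vmn1r37, Vmn1r35 was found in 1 control cell (10 and 4) and 1 cell at 3 months (172 and 401). The control cell with 10 Vmn1r35 and 4 Vmn1r37 UMIs held 40 Sox2 UMIs, and the 3-month cell 0. In 3 cells topped by Vmn1r86 the second receptor was Vmn1r85, with 4 and 3 UMIs in a P10 mutant cell and 13 and 4 and 28 and 11 in 2 cells at 3 months. These 3 cells had 0 Omp UMIs. The P10 mutant one held 30 Sox2 and 8 Vmn2r UMIs in 55475 total UMIs. Those at 3 months held 6 and 2 Sox2 and 1 and 27 Cyp2a5 UMIs. Vmn1r35 shares 38 windows of 90 bases with Vmn1r36 and 51 with Vmn1r37.

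Some pairs seen in a single cell, chosen after their values were seen, were strong. Of those on different chromosomes, a P10 mutant cell held 1054 Vmn1r184 and 634 Vmn1r200 UMIs. A cell at 3 months held 1204 Vmn1r55 and 456 Vmn1r39 UMIs, and a control cell held 529 Vmn1r8 and 246 Vmn1r179 UMIs. Within a cluster, a control cell held 300 Vmn1r230 and 269 Vmn1r228 UMIs in 20764 total UMIs. The P10 mutant cell with 129 Vmn1r9 and 121 Vmn1r89 UMIs also held 75 of Vmn1r87 and 261 Vmn2r UMIs, in 78612 total UMIs.

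**Figure D4:**
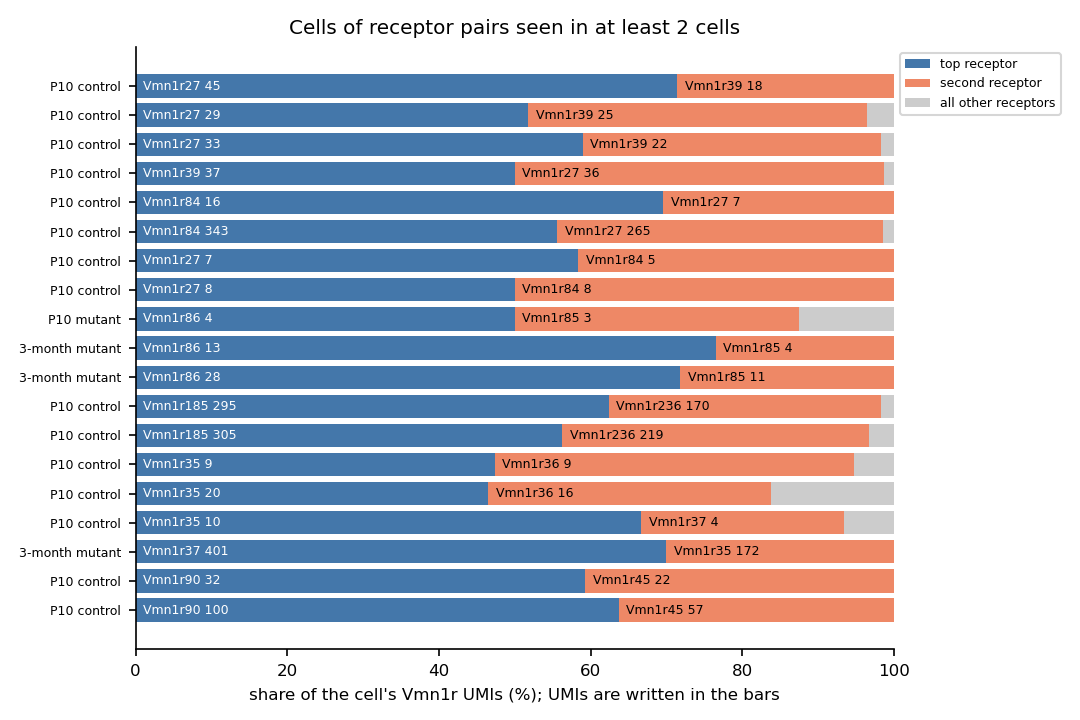
The 19 cells of the 7 receptor pairs seen in at least 2 cells. Each bar is 1 cell of the library at its left, split by the share of its Vmn1r UMIs (horizontal axis, %) held by the top receptor, the second receptor and all others, with the UMIs written in the bars. The 4 cells with Vmn1r27 and Vmn1r39 hold 56 to 74 Vmn1r UMIs each.

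In 4 receptors every cell also held the same second receptor at a lower level. The search took receptors that topped at least 3 cells with 50 or more Vmn1r UMIs, and the companions were chosen after their values were seen. All 8 such cells topped by Vmn1r86 also held at least 2 UMIs of Vmn1r85, which was 9.55% of the UMIs of both in the control (4 cells, 4.77 to 19.4 by cell) and 10.7% at 3 months (4 cells, 8.77 to 15.8). The 2 such cells topped by Vmn1r85, with 238 and 267 UMIs, held 0 UMIs of Vmn1r86. Vmn1r85 was seen in 5 of 277 cells topped by other receptors (1.81%).

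Vmn1r192 and Vmn1r191 gave the like values. Vmn1r192 topped 5 cells, all in the control, and the 3 of them with at least 50 Vmn1r UMIs held 313 UMIs of it and 53 of Vmn1r191, 14.5% of both (11.04 to 18.5), and a cell topped by Vmn1r191 with 414 UMIs held 0 of Vmn1r192. In both cases the companion is the next gene downstream on the minus strand. Vmn1r85 (chr7:13083313-13095173) starts 2358 bases beyond the annotated end of Vmn1r86 (chr7:13097531-13119917), and Vmn1r191 (chr13:22173220-22183969) lies 28 bases beyond Vmn1r192 (chr13:22183997-22191141). Their coding identity is 69.9% and 64.4%, and neither pair shares a window of 90 bases. Of 8 pairs of members that overlap or neighbour each other on 1 strand within 10000 bases, 4 had cells topped by the upstream gene. The downstream receptor was present at 2 or more UMIs in 11 of 13 such cells, all of these 2 pairs. In Vmn1r232 and Vmn1r5 cells, with neighbours 8072 and 8853 bases downstream, it had 1 UMI each. In 10 cells topped by a downstream gene the upstream one was present in 0.

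Among cells with at least 50 Vmn1r UMIs, Vmn1r184 accompanied Vmn1r185 in all 7 topped by Vmn1r185, at 4.66% of the UMIs of both in the control (6 cells, 2.64 to 5.37) and 3.53% in the P10 mutant (1 cell). These genes lie on opposite strands and share 238 windows of 90 bases, with 93.0% identity over the coding sequence. In the other direction, 8 such cells topped by Vmn1r184 held 2417, 4164 and 2496 UMIs of it in the 3 libraries and 0, 0 and 1 of Vmn1r185. Vmn1r47 was present in all 3 such cells topped by Vmn1r49, at 3.16% of the UMIs of both (control, 2 cells) and 3.42% (P10 mutant, 1 cell), and Vmn1r49 in none of the 2 topped by Vmn1r47.

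**Figure D5:**
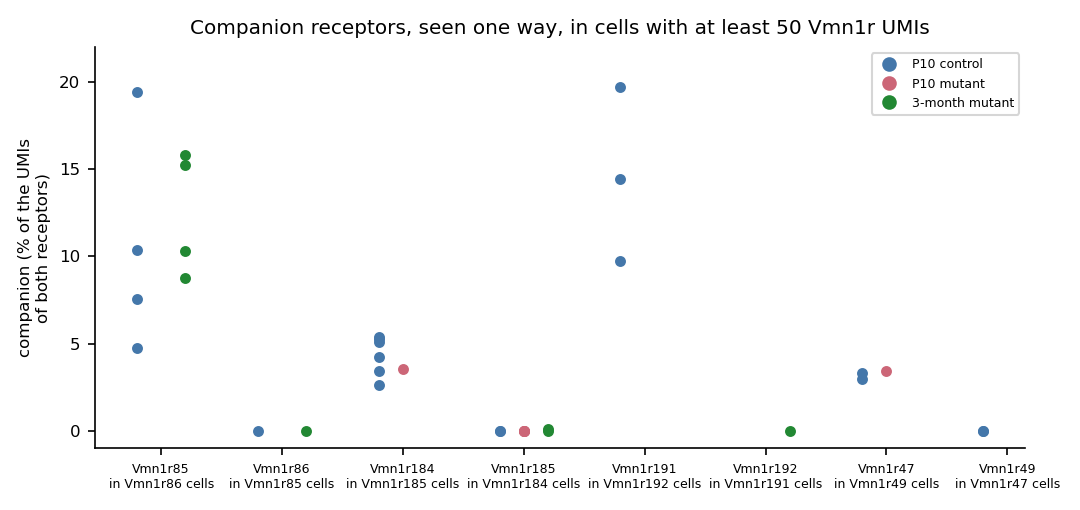
Companion receptor's share of the UMIs of both receptors (vertical axis, %) in each cell topped by the receptor named second under the axis, for cells with at least 50 Vmn1r UMIs. Points are cells, coloured by library. Vmn1r85 is at 4.77 to 19.4% in Vmn1r86 cells, and Vmn1r86 is at 0% in Vmn1r85 cells.

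The receptors differed between libraries far more often than other genes when pooled over V1R cells. A feature was compared when it had at least 20 UMIs in both libraries together, and called at a ratio of CPM of 2 or more. Between the P10 mutant and the control, 32 of 114 receptors compared were higher (28.1%) and 62 lower (54.4%), against 2.89% and 3.91% of all 13602 features. Between the 3-month and the P10 mutant, 28 of 79 were higher (35.4%) and 41 lower (51.9%), against 5.69% and 7.92% of 12634 features. The median log2 ratio of the receptors was -1.72 and -1.54, against -0.02 and -0.07 over all features. Of the receptors called lower in the P10 mutant, 21 had no UMI in 1 of the libraries. With 1 library a group these counts have no test. They turn on few cells: a single cell gave a median of 94.7% of the UMIs of the receptors higher in the P10 mutant, and 77.8% of those of the receptors lower. In the comparison of ages it gave 63.5% and 95.5%. The summed level of all receptors was 7723, 6175 and 8059 CPM.

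By share of cells, the largest differences between the P10 mutant and the control were -4.73, -4.34 and -3.55 percentage points for Vmn1r229, Vmn1r201 and Vmn1r35, and 3.16, 3.04 and 2.77 points for Vmn1r184, Vmn1r208 and Vmn1r220. For Vmn1r229 the interval of the control (3.32 to 8.20) overlapped that of the P10 mutant (0.0168 to 3.63). For Vmn1r208 the P10 mutant had 5 cells but 45 UMIs, and the control 1 cell with 159. From the P10 to the 3-month mutant the largest differences were 14.7, 5.37 and 4.41 points for Vmn1r43, Vmn1r86 and Vmn1r181, and -3.31, -2.58 and -2.50 points for Vmn1r208, Vmn1r220 and Vmn1r39. Vmn1r181 topped 6 cells at 3 months with 42 UMIs in all and no cell in the other libraries. Except for Vmn1r43, the intervals of these shares overlapped between the mutants.

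Tfap2e was seen across receptors in the mutants. Among cells with at least 50 Vmn1r UMIs, it was present in 6 of 168 control cells (3.57%, 1.32 to 7.61), in 64 of 71 P10 mutant cells (90.1%, 80.7 to 95.9) and in 46 of 48 cells at 3 months (95.8%, 85.7 to 99.5). Its level was 6.55 CPM, 513 CPM and 211 CPM. In the P10 mutant the Tfap2e-positive cells covered 46 of the 50 receptors that topped such cells, and at 3 months 31 of 32. In cells with 5 to 49 Vmn1r UMIs it was seen in 4.93% of control, 66.3% of P10 mutant and 31.8% of 3-month mutant cells, and covered 37 of 48 receptors in the P10 mutant and 21 of 34 at 3 months. In the other filtered barcodes Tfap2e was at 9.94, 146 and 46.3 CPM. Among P10 mutant cells with at least 50 Vmn1r UMIs, it was at 536 CPM in the less mature and 493 CPM in the more mature. The ratio of the more to the less mature was 0.919 (counting interval 0.813 to 1.04). Transcripts of the transgene and of the gene itself were not told apart.

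Genes of other chemoreceptor families were counted in the same cells. The Vmn2r genes were at 66.8, 220 and 148 CPM in cells with at least 50 Vmn1r UMIs, against 142, 118 and 198.7 CPM in the other filtered barcodes. They were seen in 49 of 168, 26 of 71 and 20 of 48 cells, and 1 P10 mutant cell held 261 of the 456 Vmn2r UMIs of that library's cells. They were over 20% of vomeronasal receptor UMIs in 0 of 168, 1 of 71 and 0 of 48 cells. Vmn2r3 led in the control with 207 of 306 UMIs. Odorant receptors (Olfr) had 54, 18 and 7 UMIs in these cells, formyl peptide receptors (Fpr) 5, 0 and 1, and trace amine-associated receptors (Taar) none.

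The signalling genes of V1R neurons were measured in the same cells. Of 13 genes listed for the pathway, 12 were in the feature list. The sensory channel gene Trpc2 was not analysed here under that symbol. Gnai2, Gnb1, Gng2, Gng8 and Gng13, which encode G protein subunits, were all higher in V1R cells than in the other filtered barcodes, for example Gng13 at 997 against 53.8 CPM and Gnb1 at 2157 against 392 CPM in the control. Gnb2 was not, at 240 against 395 CPM. Among P10 cells with at least 50 Vmn1r UMIs, the Gng13 level in cells with Omp at or above Gap43 was 2.32 times that in the less mature cells of the control (counting interval 2.18 to 2.46) and 2.40 times in the mutant (2.11 to 2.73). Ano2, a calcium-activated chloride channel gene, was at 26.4, 23.8 and 27.8 CPM in V1R cells and at 3.34, 1.81 and 1.59 CPM in other barcodes. Ano1, also on the list, was at 19.5, 11.8 and 24.3 CPM in V1R cells and at 28.4, 15.7 and 11.8 CPM in other barcodes. It was thus lower in V1R cells at P10 and higher at 3 months. The effector genes Plcb2 and Itpr3 were low, at 4.597 and 9.07 CPM in control V1R cells against 3.05 and 16.1 CPM in other barcodes.

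Genes known from receptor choice and transport were also present. Rtp1 and Rtp2, chaperones of receptor transport, were at 223 and 107 CPM in control V1R cells against 8.16 and 6.69 CPM in other barcodes. Rtp1 was at 93.3 CPM in the P10 mutant and at 41.3 CPM at 3 months. Atf5, a transcription factor of the stress response that follows receptor expression, was at 1332, 1052 and 635 CPM, and its level in the more mature cells was 0.734 times that in the less mature ones of the control (0.703 to 0.767) and 0.696 times in the P10 mutant (0.653 to 0.742). Lhx2 and Ebf1, transcription factors that bind receptor gene enhancers, were at 325 and 1115 CPM in the control. Kdm1a, the histone demethylase LSD1, was at 0.507 times the less mature level in the more mature control cells (0.422 to 0.609). Bcl11b was at 0.269 times (0.223 to 0.324). Of the 10 genes of this list, the interval of this ratio lay below 1 for Lhx2, Ldb1, Ebf1, Kdm1a, Atf5 and Bcl11b in the control, above 1 for Rtp1 and Rtp2, and spanned 1 for Ddit3 and Eif2ak3. In the P10 mutant it lay below 1 for Kdm1a, Atf5, Ddit3, Rtp1 and Bcl11b and above 1 for none.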

How the data were processed

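Whole VNOs of 3 groups of male mice, with 1 library each, were measured by 10x Genomics 3′ single-cell RNA sequencing. Per the file headers, the authors deposited whole counts of UMIs per gene and barcode, made with Cell Ranger 4.0.0 for the P10 libraries and 6.0.1 for the 3-month library. The labels give mm10 as the build. No normalisation had been applied. The annotation release and the strand setting of the counting are not given in the sources used here.

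From these counts, barcodes with 200 to 9000 genes and at most 10% mitochondrial UMIs were kept, and those with at least 5 Vmn1r UMIs were V1R cells. The study's limit of 5% was an alternative. Doublets were not removed and no doublet caller was run, and free RNA was not subtracted, except in alternatives. Receptor use was counted by top receptor, and pairs by a second receptor of at least 3 UMIs and 20%. Shares have exact Clopper-Pearson 95% intervals, levels exact Poisson intervals and ratios conditional exact intervals, all for counting error only. UMI intervals take UMIs as independent molecules. With 1 library a group, no test, p-value or standard error was computed. Ratios between libraries were taken over all features, with a count of 0 in V1R cells set to 3 UMIs per library. Positions, coding sequences and annotated 3′ UTR lengths came from GENCODE M21 (GRCm38), by identifier. Identity is 1 minus the edit distance over the longer coding sequence. Python 3.11.15, numpy, scipy and pandas were used, and the measures were tested on simulated data.

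The receptors named were the 10 with the highest mean share, the receptor with the most cells in each library, the 3 with the largest difference in share in each direction and comparison, and each pair seen in at least 2 cells. The companions, the single-cell pairs, the receptors in the order of levels and the alternatives with at least 2000 UMIs were chosen after the data were seen. The members and gene lists were chosen with earlier results of these data known. The sequence of 1 further pair of receptors is not reported here.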

Additional observations from a re-analysis of the deposited data

How the results depend on the processing

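No paired analysis was possible because each group has 1 library, and no library could be left out. With the 5% mitochondrial limit the V1R cells numbered 147 in the control, 63 in the P10 mutant and 66 at 3 months, the share of cells with a top receptor at 90% was 72.1% in the control and 79.4% for P10 mutant cells, the pair share of the P10 mutant was 6.35%, the receptors used were 48 in the P10 mutant and 32 at 3 months, the 10 named receptors together topped 20.4% and 14.3% of control and P10 mutant cells, less mature cells were 51.0% in the control, and 17 receptors were higher at 3 months than in the P10 mutant. With 3 Vmn1r UMIs as the least, the top share at 90% was 52.2% in the control and 69.6% at 3 months. With 10 it was 74.1% and 75.2% at P10, V1R cells at 3 months were 86, and the 10 receptors topped 16.5% in the P10 mutant. Without barcodes with Vmn2r or another cell type, V1R cells were 167 and 80 at P10, the share was 69.5% and 75%, and the P10 mutant had 6.25% pair cells and 50 receptors. Thinned to 2000 total UMIs, V1R cells were 208, 70 and 58, the share was 81.7% and 84.3% at P10, pair cells of the P10 mutant were 4.29%, and receptors used were 47 and 35 in the mutants. With 80% as the top share the values were 71.7%, 71.5% and 92.6%, and the probability that 2 UMIs are of the same receptor was 76.7%, 76.9% and 91.2%. Pair cells of the control were 12.9% with a second share of 10%, 5.93% with 30% and 13.5% with 2 UMIs. Those of the P10 mutant were 6.62% with 30% and also with 5 UMIs. Pair share could not be given at 5 Vmn1r UMIs, since a second receptor then has at most 2. The cause of these moves was not tested. The other 136 values that answer a comparison stayed within the interval of the value reported, or, for counts, within 1.5 times. They include the values after free RNA was subtracted, all of which equalled the main ones. That subtraction was rounded to whole UMIs for each receptor and cell. At these low levels it could change little, so its values say nothing on the part of free RNA.

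Depth limits these values: 89, 42 and 50 V1R cells held under 10 Vmn1r UMIs, and 56, 7 and 34 held under 2000 UMIs in all. Without these shallow cells the share of Vmn1r43 at 3 months was 0.980% in place of 14.7%. By pooled UMIs it was 0.862%. Vmn1r229 in the control had 5.39% of cells, 1.77% of cells with 10 Vmn1r UMIs and 0.423% of UMIs.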
